A study of Mus musculus with 6 samples.

Results

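The Notch pathway was followed through 10 genes, given by symbol and matched to the deposited Ensembl identifiers. They are the receptors Notch1 and Notch2, the ligands Dll1, Dll3 and Jag1, and 5 targets or feedback genes, Hes1, Hes5, Hey1, Nrarp and Dtx4. These are 10 of the 53801 genes counted. Their own values played no part in the matching, but the list was chosen with earlier results of these data known. All 10 passed the filter on low counts, each with at least 31 counts in every library. The cells were mouse neural progenitor cells (NPCs), differentiated from embryonic stem cells of the cross BL/6J x CAST-EiJ, and labelled SPEN-AID, a degron through which auxin sets off breakdown of the SPEN protein. Cells given 500 uM auxin for 48 h or for 24 h were compared with untreated cells. Every group held 1 library of subclone CL31 and 1 of subclone CL30 (n = 2 per group, 6 libraries), here called clone 31 and clone 30. The untreated cells carry the degron too, and every culture was kept on 0.1% gelatin in N2B27 with 10 ng/ml of both EGF and FGF. A line without the degron was not analysed here, so effects of auxin itself and of SPEN loss cannot be told apart.

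Notch is a receptor that is cut when a ligand on a neighbouring cell, such as Dll1 or Jag1, pulls on it. The freed intracellular part joins the DNA-binding protein RBPJ in the nucleus and switches on genes such as Hes1, Hes5 and Hey1, repressors that hold neural progenitors back from becoming neurons. Without the signal RBPJ recruits corepressors, and SPEN (also called MINT) is one of them.

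Total counts ran from 24603816 (clone 30, untreated) to 43008978 (clone 31, 24 h). Spen RNA stood at 116 and 92.3 CPM (counts scaled to library size) in untreated clones 31 and 30, at 218 and 173 CPM at 24 h, and at 259 and 200 CPM at 48 h. Since auxin acts through the tagged protein, the RNA level is no measure of how much SPEN was lost. Of 6 neural progenitor markers Sox2, Pax6, Nes, Vim and Fabp7 were present and Sox1 was under 1 CPM in every library. Their summed level was 3357 to 4180 CPM untreated, 4068 to 4820 CPM at 24 h and 4321 to 4644 CPM at 48 h. Of 4 pluripotency markers Pou5f1 and Zfp42 had 0 counts in all 6 libraries. Nanog had 3.65 and 2.52 CPM in clones 31 and 30 at 48 h against 1.40 and 1.24 CPM untreated, and Esrrb had 1.20 and 2.97 CPM at 48 h against 4.60 and 4.17 CPM untreated. In RNA from whole cultures, fewer cells of a type and less RNA per cell cannot be told apart.

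Promoter windows from RefSeq (build GRCm38.p6) were found for 7 of the 10 genes, in 8 windows because Dll1 has a pair of start sites; Hes1, Hey1 and Dtx4 had no entry in the table used. Each window was searched on both strands from 250 bases before the start site to 50 after it. The letters searched were GTGGGAA, the core that RBPJ is known to bind, CACNAG, the N box, and CACGNG, the class C site, the last pair being bound by HES and HEY repressors. A run of CACGAG would fit both of the last motifs, and no match in these genes did. The RBPJ letters occur in 6.38% of all 32851 mouse promoter windows in the table, the N box letters in 42.5% and the class C letters in 27.5%. The 250 bases before the start are printed for Hes5, the target with the largest fold difference, for Nrarp, for both starts of Dll1, the ligand that moved with them, and for Jag1, the ligand that stayed nearest its untreated level. All are given 5′ to 3′ on the gene's own strand, with matches of the 3 motifs in capitals.
Hes5, chr4:154960673-154960922, plus strand: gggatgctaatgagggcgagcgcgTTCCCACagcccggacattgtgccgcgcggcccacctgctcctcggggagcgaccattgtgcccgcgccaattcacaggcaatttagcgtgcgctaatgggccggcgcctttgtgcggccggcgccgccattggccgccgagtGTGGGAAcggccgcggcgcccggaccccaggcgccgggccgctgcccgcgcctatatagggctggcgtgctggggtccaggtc
Nrarp, chr2:25180508-25180757, plus strand: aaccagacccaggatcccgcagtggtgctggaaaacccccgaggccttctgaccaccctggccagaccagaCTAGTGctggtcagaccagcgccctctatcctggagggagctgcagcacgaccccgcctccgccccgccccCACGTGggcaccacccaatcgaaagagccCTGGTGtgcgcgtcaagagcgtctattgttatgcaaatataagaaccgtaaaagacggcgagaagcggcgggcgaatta
Dll1, upstream start, chr17:15376933-15377182, minus strand: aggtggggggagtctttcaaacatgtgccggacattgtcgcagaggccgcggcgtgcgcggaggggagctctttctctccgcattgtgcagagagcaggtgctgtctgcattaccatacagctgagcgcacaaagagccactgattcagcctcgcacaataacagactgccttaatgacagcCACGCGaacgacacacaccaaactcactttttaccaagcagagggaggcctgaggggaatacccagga
Dll1, downstream start, chr17:15375824-15376073, minus strand: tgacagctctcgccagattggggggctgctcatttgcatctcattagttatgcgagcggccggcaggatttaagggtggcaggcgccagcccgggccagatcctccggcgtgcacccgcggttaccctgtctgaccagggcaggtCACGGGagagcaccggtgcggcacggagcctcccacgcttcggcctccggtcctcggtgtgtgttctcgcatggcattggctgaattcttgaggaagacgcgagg
Jag1, chr2:137116521-137116770, minus strand: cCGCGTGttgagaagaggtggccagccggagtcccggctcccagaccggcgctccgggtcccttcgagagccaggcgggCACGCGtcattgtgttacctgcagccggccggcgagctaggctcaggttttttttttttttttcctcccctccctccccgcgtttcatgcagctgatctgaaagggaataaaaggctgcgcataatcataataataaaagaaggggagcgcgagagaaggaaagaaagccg

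Hes5 was the 1 gene of the 7 with the RBPJ letters in its window. It held them 2 times, on the minus strand at -226 to -220 and on the plus strand at -83 to -77, counted from the start site at 0. Windows with 2 or more such matches made up 0.256% of all windows, 84 in number. Nrarp held CACGTG, which fits the class C letters on both strands, at -108 to -103, between N boxes at -179 to -174 and -79 to -74. Each Dll1 window held 1 class C match, as CACGCG at -68 to -63 of the upstream start and as CACGGG at -105 to -100 of the downstream one, and the upstream one also held an N box at 13 to 18. The Jag1 window held 2 class C matches, at -249 to -244 and at -171 to -166. In all, N boxes occurred in 4 of the 7 genes and class C letters in 4. A match describes these letters in this window and says nothing of binding in these cells.

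**Figure D1:**
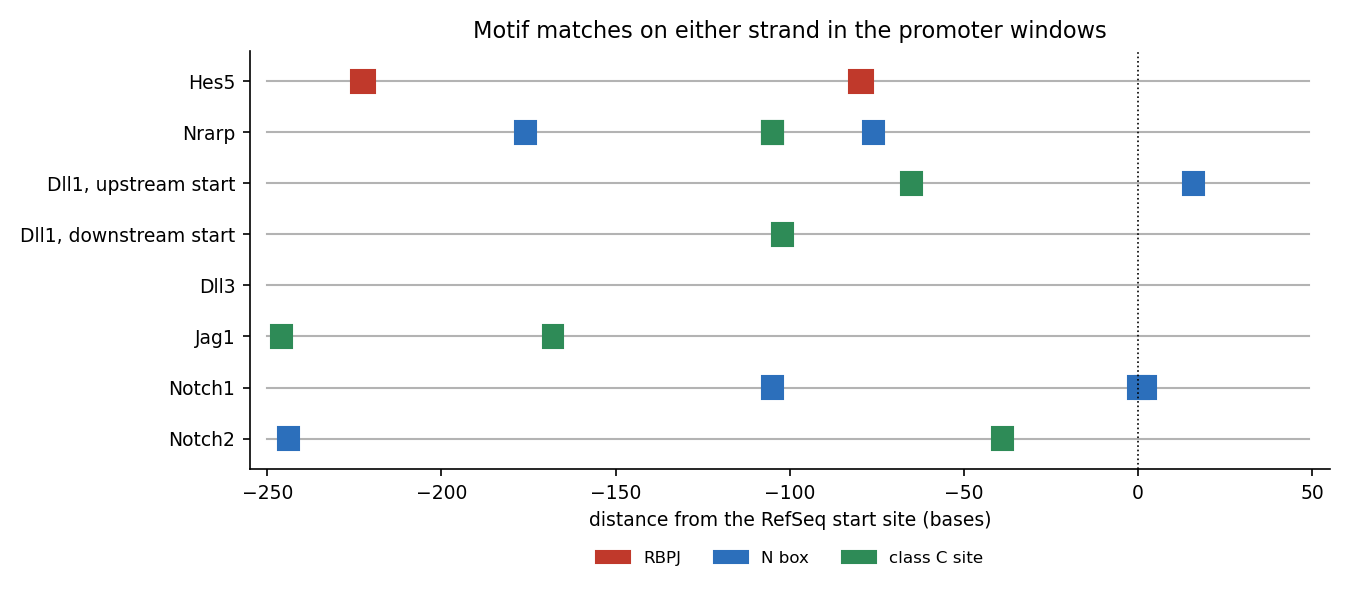
Position of each motif match in the 8 promoter windows, in bases from the RefSeq start site (0, dotted line), with RBPJ letters in red, N box letters in blue and class C letters in green. The RBPJ letters are seen in the Hes5 window alone, 2 times, and the Dll3 window holds no match.

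What the Notch genes do after 48 h on auxin was read against the untreated libraries. Hes5, Nrarp, Hey1, Dtx4 and the ligand Dll1 were higher at 48 h in both clones, by 1.74-fold (Dtx4 in clone 30) to 57.1-fold (Hes5 in clone 31). Notch1 and Notch2 were higher by less, Hes1 and Dll3 differed little beside their spread, and Jag1 was near its untreated level. In edgeR on treatment group alone none of the 10 was called at an adjusted p of 0.05 (0 of all 16007 genes tested were, a background of 0%, with 3311 genes at an unadjusted p under 0.05, 7 of the 10 among them), and adjusted p ran from 0.139 for Hey1 to 0.833 for Jag1. With the clone as a block, which compares each 48 h library with the untreated library of its own subclone, 5 of the 10 were called, all higher, and 0 were called lower. The background under that call rule was 17.4% of all genes, 8.35% called higher and 9.08% called lower. The median log2 difference of the 10 genes was 0.75, against 0.02 for all genes tested.

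The CPM ranges of the 48 h and untreated libraries did not overlap for 7 of the 10 genes, with the 48 h libraries higher each time, where 25.7% of all genes had 48 h higher without overlap. Both fits rest on few degrees of freedom, 2 with the block and 3 without it. Without the block the p-values measure the spread between these 2 subclones. With it they measure what is left after a constant difference between the subclones is taken out, which is how unevenly the 2 changed over the times. Single libraries decided the count of calls with the block. Dropping untreated clone 31 left 0 of the 10, and dropping untreated clone 30 gave 7. Dropping either 24 h library left 3 (Hey1, Nrarp and Dtx4), dropping 48 h clone 31 left 4 and dropping 48 h clone 30 gave 9. The calls over all genes were then 0.0367% and 11.8% (untreated clones 31 and 30 dropped), 3.94% and 3.76% (24 h) and 19.5% and 39.4% (48 h). On simulated counts edgeR on treatment group alone recovered none of the changed genes, while with the block unchanged genes made up more of its calls than the threshold of 0.05 allows for. The simulation changed far fewer genes than the block called here, and by the same fold in both clones. Its outcome therefore need not hold for these data. An exact permutation test of 2 libraries against 2 cannot give a 2-sided p below 0.333.

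**Figure D2:**
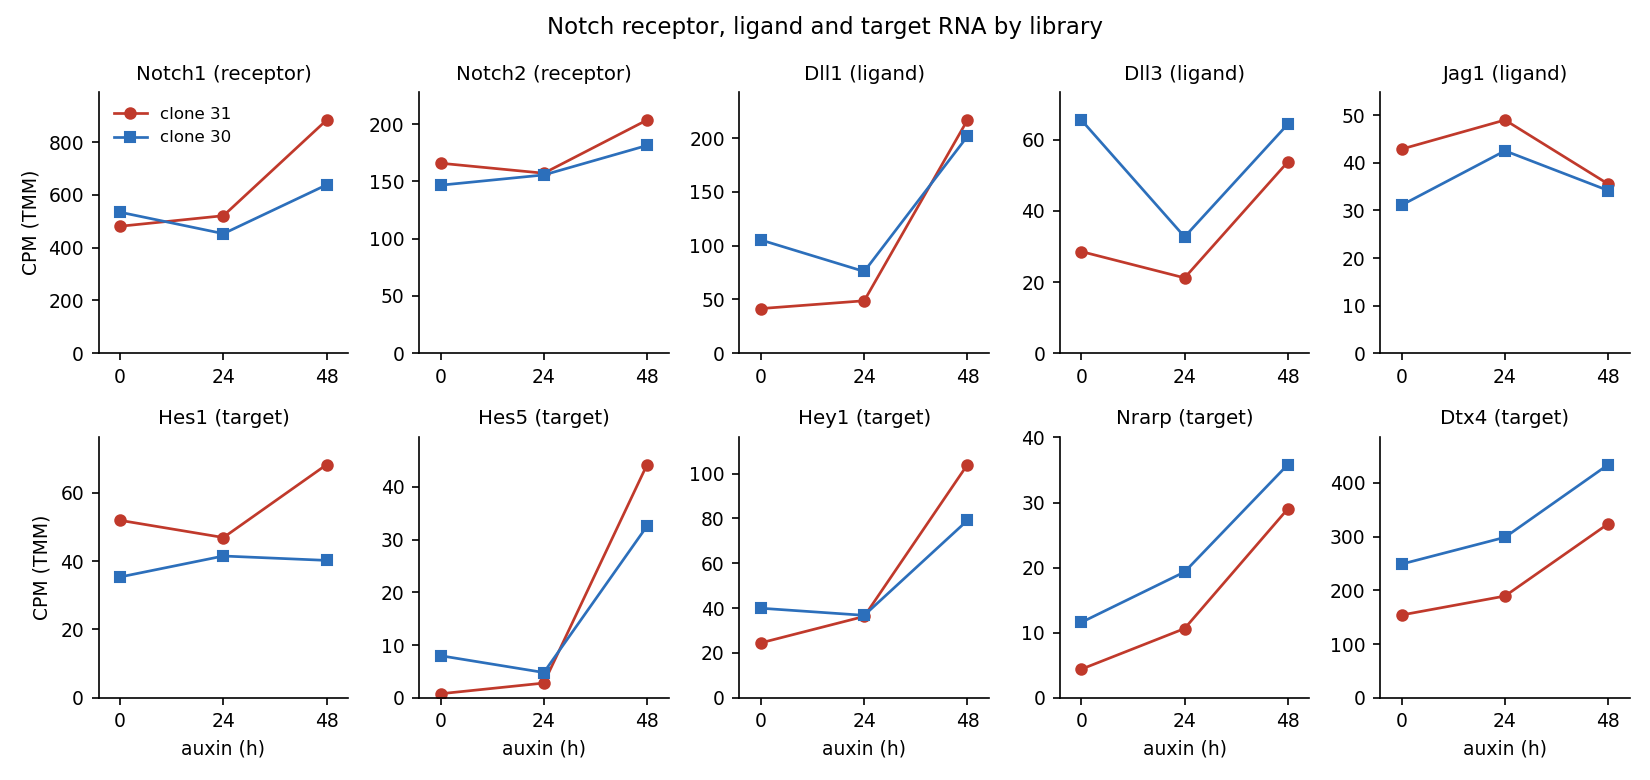
CPM (normalized by TMM, linear axis from 0) of each Notch gene in the 6 libraries against hours of auxin, with clone 31 in red and clone 30 in blue; each point is 1 library. Hes5, Hey1, Nrarp, Dtx4 and Dll1 have both 48 h libraries above both untreated libraries, while Jag1 stays between 31.1 and 49.0 CPM throughout.

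The targets showed the widest differences. Hes5 (ENSMUSG00000048001, chr4:154960923-154962371 of mm10), a bHLH repressor and a classic Notch readout in neural stem cells, had 0.775 CPM in untreated clone 31 and 7.98 CPM in untreated clone 30. After 24 h it had 2.80 and 4.80 CPM in clones 31 and 30, and after 48 h it had 44.2 and 32.6 CPM. Both 48 h libraries thus lay above the 4 other libraries, which did not separate by treatment. The untreated value of clone 31 rested on 31 counts and that of clone 30 on 199, against 1174 and 1008 counts at 48 h. The 48 h over untreated ratio was 57.1-fold in clone 31 and 4.08-fold in clone 30. The log2 change with the clone as a block was 3.57 ± 0.81 (SE; edgeR adjusted p = 0.0387, and 0.187 on treatment group alone). That change became 2.30 when untreated clone 31 was dropped and 5.58 when untreated clone 30 was. It became 2.43 when 48 h clone 31 was dropped and 4.70 when 48 h clone 30 was. With 1 library left in either group, the fit measures no spread of this change. Dropping a 24 h library left it at 3.67, with an edgeR adjusted p of 0.293 (clone 31) or 0.278 (clone 30).

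Nrarp (ENSMUSG00000078202, chr2:25180758-25183339), a small ankyrin-repeat protein that Notch switches on and that dampens Notch signalling, was higher at each later time in both clones. It had 4.40 and 11.6 CPM in untreated clones 31 and 30, 10.6 and 19.3 CPM at 24 h, and 29.0 and 35.8 CPM at 48 h. In each clone the order was untreated, 24 h, 48 h, and the 24 h range overlapped the untreated range. At 48 h its log2 change was 2.16 ± 0.26 with the block (edgeR adjusted p = 0.0238, and 0.153 on treatment group alone), with ratios of 6.60-fold in clone 31 and 3.09-fold in clone 30. An antisense gene, Gm38287, lies wholly within Nrarp and had at most 2 counts in any library. Antisense genes that overlap Notch1, Dll1 and Hes5 had at most 26 counts, and Gm42820, which shares 541 bases with Notch2 on the same strand, at most 13.

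Hey1 (ENSMUSG00000040289, chr3:8663359-8667256), a bHLH repressor of the Hey family, had 24.5 and 40.0 CPM in untreated clones 31 and 30, 36.3 and 36.8 CPM at 24 h and 104 and 79.1 CPM at 48 h. The clones were nearly equal at 24 h and both were highest at 48 h. Its log2 change at 48 h was 1.53 ± 0.25 with the block (edgeR adjusted p = 0.0257, and 0.139 on treatment group alone). Dtx4 (ENSMUSG00000039982, chr19:12466341-12501996), a Deltex-family E3 ubiquitin ligase grouped here with the targets, had 154 and 249 CPM in untreated clones 31 and 30. It had 189 and 299 CPM at 24 h and 324 and 434 CPM at 48 h. Clone 31 lay below clone 30 at every time, and each clone stepped up at both times. The log2 change of Dtx4 at 48 h was 0.94 ± 0.11 with the block (edgeR adjusted p = 0.0238, and 0.216 on treatment group alone).

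Hes1 (ENSMUSG00000022528, chr16:30064384-30067796), the Hes5 relative that other signals besides Notch also switch on, had 51.9 and 35.4 CPM in untreated clones 31 and 30, 46.9 and 41.5 CPM at 24 h, and 68.3 and 40.2 CPM at 48 h. Its ranges overlapped between all pairs of groups. At 48 h the log2 difference from untreated was 0.30 ± 0.15 with the block (edgeR adjusted p = 0.215).

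Among the ligands Dll1 stood out. Dll1 (ENSMUSG00000014773, chr17:15367354-15376872), the Delta ligand with which one progenitor activates its neighbour, had 41.5 and 105 CPM in untreated clones 31 and 30, 48.8 and 76.0 CPM at 24 h and 217 and 202 CPM at 48 h. The clones differed when untreated and lay close together at 48 h. Its log2 change at 48 h was 1.66 ± 0.32 with the block (edgeR adjusted p = 0.0302, and 0.178 on treatment group alone), with ratios of 5.22-fold in clone 31 and 1.92-fold in clone 30. Dll3 (ENSMUSG00000003436, chr7:28293553-28302238), a divergent Delta protein that does not activate receptors on neighbouring cells, had 28.6 and 65.6 CPM in untreated clones 31 and 30. It had 21.2 and 32.7 CPM at 24 h, the lowest point of each clone, and 53.8 and 64.4 CPM at 48 h. Against untreated cells it was higher at 48 h in clone 31 only, with log2 ratios of 0.91 in clone 31 and -0.03 in clone 30, and 0.43 ± 0.22 with the block (edgeR adjusted p = 0.203). Jag1 (ENSMUSG00000027276, chr2:137081456-137116644), a ligand of the Jagged class, had 42.9 and 31.1 CPM in untreated clones 31 and 30, 49.0 and 42.5 CPM at 24 h and 35.5 and 34.2 CPM at 48 h. The 48 h values of Jag1 lay between the untreated ones, with a log2 difference of -0.07 ± 0.13 with the block (edgeR adjusted p = 0.716).

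The receptors moved less. Notch1 (ENSMUSG00000026923, chr2:26457903-26516663) had 481 and 534 CPM in untreated clones 31 and 30, 521 and 453 CPM at 24 h and 884 and 638 CPM at 48 h. Both 48 h libraries were above the other 4, and the ratio to untreated was 1.84-fold in clone 31 and 1.19-fold in clone 30. The log2 difference of 0.57 ± 0.16 with the block missed the threshold in edgeR (adjusted p = 0.0633) and passed in DESeq2 with the block (adjusted p = 0.00970). DESeq2 with the block called 6 of the 10 genes against 21.0% of all genes, 9.98% of them higher, and on treatment group alone it called 4 (Dll1, Hes5, Hey1 and Nrarp) against 10.4% of all genes, 4.19% higher. Notch2 (ENSMUSG00000027878, chr3:98013527-98150361) had 166 and 147 CPM in untreated clones 31 and 30, 157 and 156 CPM at 24 h and 204 and 181 CPM at 48 h. Its log2 ratios to untreated at 48 h were 0.30 in clone 31 and 0.31 in clone 30. The fitted difference was 0.30 ± 0.09 with the block and was not called (edgeR adjusted p = 0.0711).

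**Figure D3:**
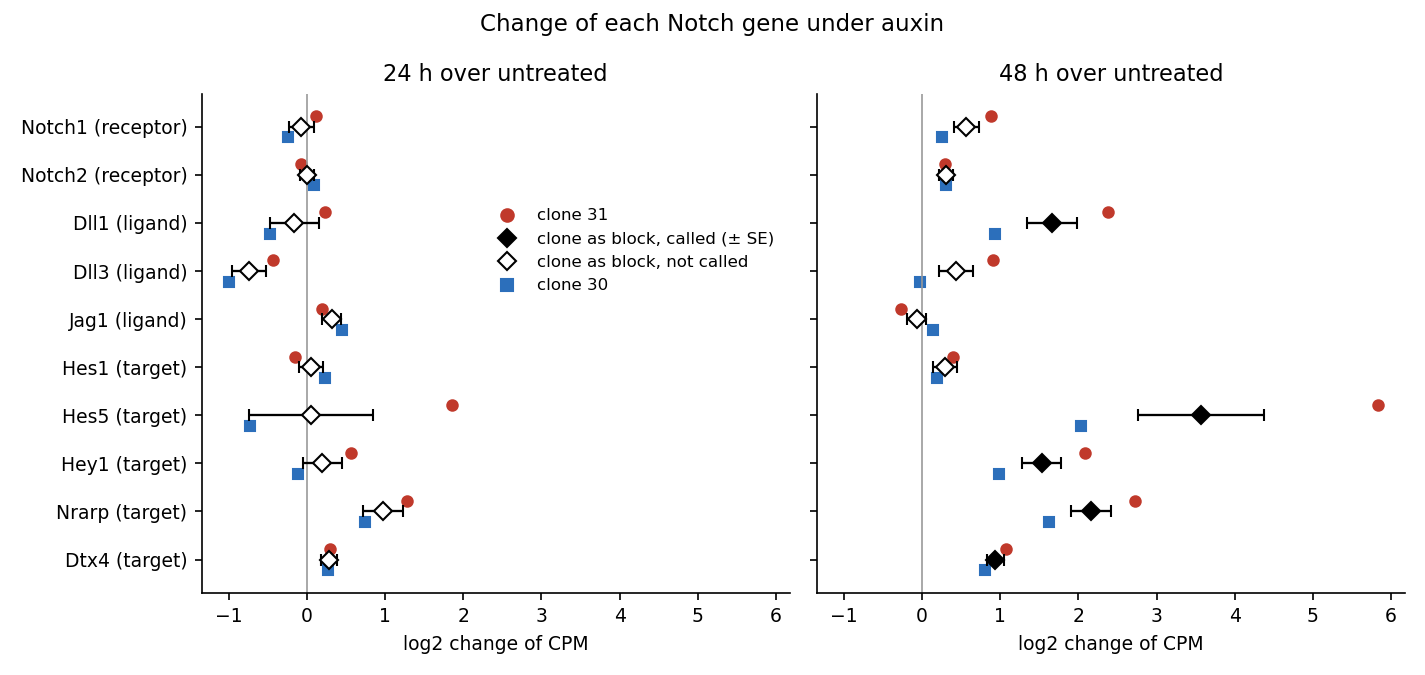
Log2 ratio of CPM over the untreated library of the same clone at 24 h (left) and 48 h (right), for clone 31 (red circles) and clone 30 (blue squares), with the edgeR estimate that has the clone as a block (diamonds, bars ± SE; filled where called). At 48 h Hes5 runs from 2.03 in clone 30 to 5.83 in clone 31, and at 24 h no diamond is filled.

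The comparison of 24 h with untreated cells, which uses the same untreated libraries, asks what changed within the first day. None of the 10 genes was called in edgeR with or without the block, where 0% of all genes were called (240 at an unadjusted p under 0.05 on treatment group alone, 0 of the 10 among them, and 988 with the block, 4 of the 10 among them), and DESeq2 with the block called 0 of the 10 and 0.256% of all genes (41 genes). No gene of the 10 had ranges apart, against 13.0% of all genes with 24 h higher without overlap and 12.4% with 24 h lower. The median log2 difference of the 10 was 0.05 with the block. Nrarp had the largest difference, 0.98 ± 0.26 with the block (edgeR adjusted p = 0.693), higher in both clones. With the block and both 48 h libraries dropped it was called (edgeR adjusted p = 0.0335), in a fit that called 140 genes in all. With 48 h clone 31 or 48 h clone 30 dropped its log2 difference was again 0.98. The library left at 48 h is then fitted exactly, so these fits rest on the same untreated and 24 h libraries. They add no separate result. Dll3 had -0.74 ± 0.22 (edgeR adjusted p = 0.730), lower in both clones, with ratios of 0.741 in clone 31 and 0.499 in clone 30. Jag1 had 0.31 ± 0.13 and Dtx4 0.28 ± 0.11, higher in both clones and not called (edgeR adjusted p = 0.799 and 0.780). For Notch1, Notch2, Dll1, Hes1, Hes5 and Hey1 the clones moved in opposite directions.

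Between 24 h and 48 h of auxin, the later of the 2 intervals, 7 of the 10 genes were higher and called with the clone as a block and 0 were lower and called. The background was 26.1% of all genes, 12.3% called higher and 13.9% called lower, and without the block 0 genes were called (0%, with 3997 at an unadjusted p under 0.05, 6 of the 10 among them). The split of all genes was 1961 higher and 2224 lower, and 2549 higher and 1726 lower with upper-quartile scaling. The 48 h and 24 h ranges did not overlap for 9 of the 10 genes, 8 higher (28.4% of all genes) and 1, Jag1, lower (27.9% of all genes). Their median log2 difference was 0.92, against 0.03 for all genes.

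Hes5 again led between the times, at 3.51 ± 0.77 (edgeR adjusted p = 0.0275 with the block), followed by Dll1 at 1.82 ± 0.32 (adjusted p = 0.0181) and Hey1 at 1.33 ± 0.25 (adjusted p = 0.0199). Nrarp was higher by 1.19 ± 0.25 (edgeR adjusted p = 0.0244) and Dll3 by 1.17 ± 0.22 (adjusted p = 0.0201). Dtx4 and Notch1 were higher by 0.66 ± 0.11 and 0.64 ± 0.16 (edgeR adjusted p = 0.0170 and 0.0382). Jag1 differed by -0.39 ± 0.13, lower in both clones and short of the threshold (edgeR adjusted p = 0.0701). Notch2 differed by 0.30 ± 0.09 (adjusted p = 0.0602) and Hes1 by 0.25 ± 0.15 (adjusted p = 0.262). With 24 h clone 31 or 24 h clone 30 dropped 0 of the 10 were called, and 3 and 0 of all genes. The log2 differences were then much the same with larger SEs, as for Dll1 at 1.81 ± 0.54 and 1.83 ± 0.52 and Hey1 at 1.40 ± 0.38 and 1.27 ± 0.36. The count was 5 with 48 h clone 31 dropped (25.3% of all genes) and 10 with 48 h clone 30 dropped (44.4% of all genes). It was 7 with untreated clone 31 or clone 30 dropped (25.3% and 24.8% of all genes). With the block DESeq2 also called 7 of the 10, against 26.7% of all genes (12.3% higher), and on treatment group alone it called 4, against 15.8% (6.25% higher).

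The log2 ratio of clone 31 over clone 30 was smaller in size at 48 h than in untreated cells for 8 of the 10 genes. At 48 h it was 0.44 for Hes5, -0.30 for Nrarp, 0.10 for Dll1, -0.26 for Dll3, 0.39 for Hey1, -0.42 for Dtx4 and 0.06 for Jag1. In untreated cells the same ratios were -3.36 for Hes5, -1.40 for Nrarp, -1.34 for Dll1, -1.20 for Dll3, -0.70 for Hey1, -0.69 for Dtx4 and 0.46 for Jag1. Notch2 was nearly equal, at 0.17 at 48 h and 0.18 untreated. In 2 genes the clones lay farther apart at 48 h, Notch1 at 0.47 against -0.15 untreated and Hes1 at 0.76 against 0.55 untreated. The median size of the log2 ratio between clones over the 10 genes was 0.70 untreated, 0.42 at 24 h and 0.35 at 48 h, against 0.25, 0.23 and 0.29 over all genes. The ratio of 48 h to untreated was larger in clone 31 for 8 of the 10 genes, among them all 5 targets. With 1 library per clone and time, the difference between the clones' responses was not tested.

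Over all 3 times Dtx4 was the 1 gene of the 10 called between the clones, lower in clone 31 by a log2 difference of -0.59 ± 0.09 (edgeR with treatment group and clone, adjusted p = 0.0110), where 16.2% of all genes were called, 7.58% higher and 8.58% lower in clone 31. The split of all genes was 1174 higher and 1329 lower, and 910 higher and 1609 lower with scaling by total counts. Dtx4 was lower in clone 31 at each of the 3 times. Its call was lost with either 24 h library dropped. The library left at 24 h is then fitted exactly, so both fits rest on the same untreated and 48 h libraries and are 1 result. Dropping either 48 h library likewise left the same untreated and 24 h libraries, and gave more calls among the 10 and over all genes. Nrarp differed by -0.82 ± 0.21 (edgeR adjusted p = 0.0506), Dll3 by -0.70 ± 0.18 (adjusted p = 0.0543) and Hes1, higher in clone 31, by 0.49 ± 0.13 (adjusted p = 0.0514). Hes5 differed by -0.90 ± 0.65 (edgeR adjusted p = 0.397), a mean over times at which its sign changed.

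Levels of different genes were compared per kilobase of exon, as RPKM. In untreated cells Notch1 averaged 35.7 ± 2.64 RPKM and Dtx4 35.0 ± 11.6 RPKM (SD, n = 2), with overlapping ranges. Below them, and with ranges apart from them, came Hes1 at 21.4 ± 5.75, Dll1 at 17.4 ± 10.7, Dll3 at 16.5 ± 9.18 and Notch2 at 14.5 ± 1.26 RPKM, each overlapping the next. Hey1 at 9.87 ± 3.34 RPKM lay below Notch2 without overlap but overlapped Dll1 and Dll3, and Jag1 at 6.35 ± 1.43 RPKM stood apart from Hey1. Hes5 at 3.21 ± 3.74 and Nrarp at 3.10 ± 1.97 RPKM were the lowest, with ranges that overlapped, and that of Hes5 overlapped that of Jag1.

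At 24 h the order from Dtx4 (42.3 ± 13.4 RPKM), Notch1 and Hes1 down to Nrarp (5.81 ± 2.38 RPKM) and Hes5 (2.79 ± 1.04 RPKM) was much as in untreated cells. At 48 h Dtx4 at 65.7 ± 13.5, Notch1 at 53.5 ± 12.2 and Dll1 at 49.6 ± 2.53 RPKM led, each overlapping the next, and Dll1 stood apart from the genes below. Hes5 at 28.2 ± 6.04, Hey1 at 28.0 ± 5.39 and Hes1 at 26.6 ± 9.73 RPKM could not be ordered beyond their spread. Dll3 at 20.7 ± 2.63 overlapped Hes1 and Notch2 (17.9 ± 1.46 RPKM). Nrarp at 12.6 ± 1.86 and Jag1 at 5.98 ± 0.165 RPKM were the lowest and stood apart from each other. Hes5, among the lowest of the 10 per kilobase in untreated cells, was thus at the level of Hes1 at 48 h.

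**Figure D4:**
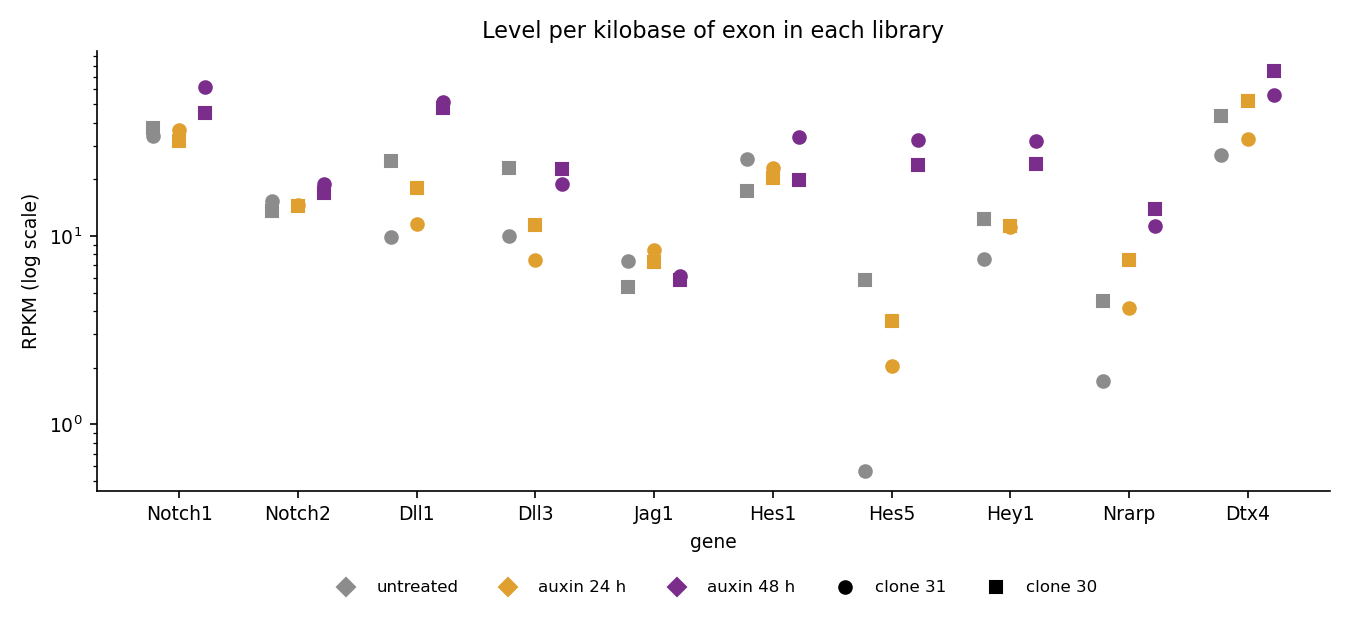
RPKM on a log axis for each Notch gene in the 6 libraries, with untreated in grey, 24 h in orange and 48 h in purple, circles for clone 31 and squares for clone 30. Hes5 spans the widest range, from 0.568 RPKM in untreated clone 31 to 32.4 RPKM in 48 h clone 31, and the Jag1 points stay between 5.34 and 8.41 RPKM.

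The rest of the pathway was read from lists of 76 further genes, from receptor processing to corepressors and proneural genes, of which 73 passed the filter. With the clone as a block 14 were called higher and 3 lower at 48 h against untreated and 56 were not called, with a median log2 difference of 0.13. That is 19.2% higher and 4.11% lower, beside 8.35% and 9.08% of all genes. On treatment group alone edgeR called 0 of them (20 at an unadjusted p under 0.05) and DESeq2 6 higher and 2 lower, beside 10.4% of all genes called. At 24 h edgeR called 0 with the block (3 at an unadjusted p under 0.05) and DESeq2 with the block 1, Spen. Dropping untreated clone 31 left 0 of the 73 called at 48 h (6 of all genes), and dropping untreated clone 30 left 9 higher and 2 lower (5.54% and 6.30% of all genes). Dropping 24 h clone 31 or 24 h clone 30 left 3 higher (2.04% and 1.97% of all genes) and 1 lower (1.90% and 1.79%). The counts were 12 higher and 4 lower with 48 h clone 31 dropped (8.91% and 10.6% of all genes) and 31 higher and 8 lower with 48 h clone 30 dropped (20.9% and 18.5%).

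Dll4, a further Delta ligand, had 7.23 and 7.88 CPM in clones 31 and 30 at 48 h, against 0.850 and 2.77 CPM in the same clones untreated, a log2 change of 2.23 ± 0.38 (edgeR adjusted p = 0.0263 with the block). Mfng, a Fringe glycosyltransferase that modifies Notch receptors, had 21.7 and 39.0 CPM at 48 h against 5.30 and 21.1 CPM untreated (log2 change 1.43). Hey2, a Hey-family repressor, had 4.89 and 3.97 CPM at 48 h against 0.850 and 1.93 CPM untreated (log2 change 1.77). Hes3, a further Hes repressor, was called at low depth, with 11 and 65 counts in clones 31 and 30 at 48 h against 5 and 2 counts untreated. Neurog2, a proneural factor that HES proteins are known to repress, was likewise low, with 17 and 41 counts at 48 h against 1 and 9 counts untreated. Both 48 h libraries exceeded both untreated libraries for each of these 5 genes, for Mfng by little (21.7 against 21.1 CPM). Of all genes 25.7% had 48 h higher without overlap, and these 5 were named because they were called higher at 48 h.

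The ligand-endocytosis and turnover genes Mib1, Numbl, Dtx3 and Dtx3l were called higher by 0.63, 0.52, 0.44 and 0.60 on the log2 scale, and Neurl1a lower, by -0.68. Mib1 is the E3 ligase that lets ligand-bearing cells pull on the receptor. In the nuclear complex Maml2, a Mastermind coactivator, was called higher by 0.50 and Rbpj itself was not called (0.28 ± 0.13, edgeR adjusted p = 0.168). Of the 19 RBPJ corepressors 3 were called higher, Spen by 1.14, Fhl1 by 0.87 and Tle1 by 0.80, and 1 lower, Ctbp2 by -0.39, and these 4 of 19 stand beside 17.4% of all genes called. Aph1c, a gamma-secretase subunit with a near-identical copy in Aph1b, was called higher by 0.75, which is uncertain because reads may be split between the copies. Ccnd1, a G1 cyclin and a Notch target in some tissues, had 203 and 498 CPM in clones 31 and 30 at 48 h against 1124 and 1313 CPM untreated. Its log2 change of -1.93 ± 0.26 ran against that of the Hes and Hey genes. Myc, also among the listed targets, was lower too but not called. It had 13.6 and 73.6 CPM in clones 31 and 30 at 48 h, against 169 and 108 CPM untreated. The other 9 tested targets had log2 changes above 0. Neither Notch3 (0.46 ± 0.17, edgeR adjusted p = 0.105) nor Notch4 (0.34 ± 0.28, adjusted p = 0.422) was called, which leaves 0 of the 4 receptors called in edgeR with the block, where DESeq2 with the block called Notch1.

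**Figure D5:**
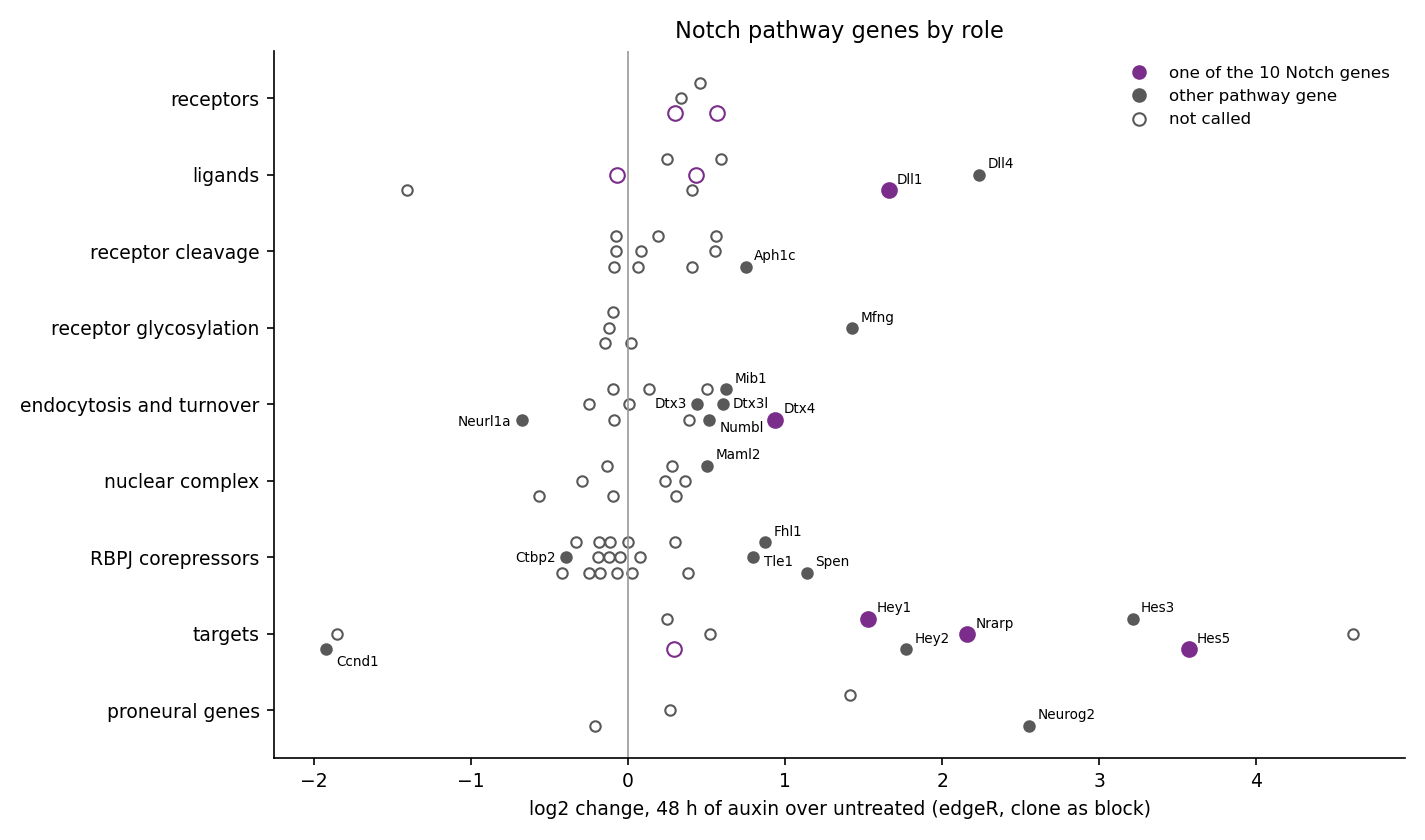
Log2 change at 48 h over untreated (edgeR with the clone as a block) for the 83 tested genes of the pathway lists by role, with the 10 Notch genes in purple and other genes in grey; filled points were called and are named. The called genes lie to the right of 0 except Neurl1a, Ctbp2 and Ccnd1.

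Markers of other cell types were read beside these changes. The summed level of 6 astrocyte markers (Gfap, Aqp4, Aldoc, Slc1a3, S100b and Aldh1l1) was 1104 to 1516 CPM untreated, 1261 to 1337 CPM at 24 h and 1791 to 2148 CPM at 48 h, so that it too was highest at 48 h. Slc1a3 and Aldoc made up most of that sum. Of the 6, 4 were called higher at 48 h in edgeR with the block, beside 8.35% of all genes. That count was 0 with untreated clone 31 dropped, 4 with untreated clone 30 dropped, 2 with either 24 h library dropped, 3 with 48 h clone 31 dropped and 6 with 48 h clone 30 dropped, beside the shares of all genes given above for those fits. In edgeR with the block on all 6 libraries 1 marker each was called higher among the neural progenitor (Sox2), oligodendrocyte lineage (Pdgfra), pluripotent (Nanog), endothelial (Kdr) and mesenchymal (Col1a1) lists, 0 among the neuron list and 0 lower in any list. DESeq2 with the block called 12 of the 28 tested markers higher and 2 lower, beside 21.0% of all genes called. Among the 6 astrocyte markers it called 5 higher and 0 lower. Among neural progenitor markers it called 4 higher and 1 lower, and among pluripotent ones 1 higher and 1 lower. The oligodendrocyte lineage and endothelial lists had 1 called higher each. None of the 6 astrocyte markers was at 0 in every library, and Gfap, the defining marker, was at 0.941 and 2.71 CPM in clones 31 and 30 at 48 h against 0.275 and 0.722 CPM untreated. The summed level of 6 neuron markers was 844 to 1131 CPM untreated, 718 to 973 CPM at 24 h and 1000 to 1080 CPM at 48 h, nearly all of it Map2, while Dcx had 8.77 and 4.85 CPM in clones 31 and 30 at 48 h against 4.40 and 3.49 CPM untreated. Within the progenitor sum, Sox2 had 472 and 339 CPM at 48 h against 192 and 200 CPM untreated, and Nes had 648 and 1136 CPM at 48 h against 1274 and 1288 CPM untreated. For 6 oligodendrocyte lineage markers the sum was 2764 to 3185 CPM untreated, 2917 to 2973 CPM at 24 h and 2849 to 3328 CPM at 48 h, with overlapping ranges. Nearly all of it was Olig1 and Olig2. Olig2 had 460 and 619 CPM in clones 31 and 30 at 48 h against 694 and 602 CPM untreated. Endothelial and mesenchymal markers summed to at most 8.67 and 4.14 CPM in any library. The part of the astrocyte markers in the Notch gene values was not tested.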

How the data were processed

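RNA was measured in 6 NPC libraries. The authors deposited raw counts of read pairs per gene, made with featureCounts 1.6.1 over exons with strand option 2 on the Ensembl release 92 annotation of mm10, per the file headers; the exon length of each gene is deposited beside them. Libraries were made with TruSeq RNA kit v2, per the labels' protocols, and R 3.4.2 and DESeq2 are named in the submitters' processing notes. The aligner settings are not given in the sources used here.

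Of 53801 genes 53620 matched a symbol. Testing used the robust 2-sided quasi-likelihood F test of edgeR 4.0.16 under R 4.3.3, with TMM scaling and the filterByExpr filter (16007 genes kept). The 6 libraries entered one fit on treatment group, and genes were called at a Benjamini-Hochberg adjusted p under 0.05 over all genes tested. For the clones the fit had both treatment group and clone (15492 genes). The SE of an edgeR value is its log2 change over the root of F. CPM and RPKM were computed from the counts with TMM and, for RPKM, the deposited exon length. Total counts were 24603816 to 43008978 per library, and a floor of 3 counts was 0.0698 to 0.122 CPM; floors cover counting error only. The sample titles show that libraries sharing a number share a subclone, which pairs them. Over genes, the paired libraries' departures from their group means had correlations of 0.80 for untreated with 24 h, 0.71 for 24 h with 48 h and 0.58 for untreated with 48 h. A fit with the clone as block therefore stands next to every result that it alters. Its common biological coefficient of variation was 0.121, against 0.271 on treatment group alone.

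The members, the pathway and marker lists and the tests were chosen with earlier results of these data known. Named are the 10 genes, every listed pathway gene called at 48 h with the block, and the 3 genes most like Hes5 and Nrarp; other listed genes, named with the values beside them, were chosen after their values were seen. Other settings tried were DESeq2 size factors, upper-quartile scaling, total counts, a filter at 1 CPM in 2 libraries or none beyond 1 count, DESeq2 1.42.0, limma 3.58.1 voom, thinning to the lowest total, the 4 libraries compared, the clone block and leaving out each library.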

Additional observations from a re-analysis of the deposited data

Results flagged for a closer look

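In 9 cases the ratio of 1 clone lay above 1 and that of the other below it. The difference between the clones was not tested in any of them, because each clone has 1 library per time. From untreated to 24 h the log2 ratio of clone 31 minus that of clone 30 was 2.586 for Hes5 (1.85 in clone 31 and -0.73 in clone 30), 0.702 for Dll1 (0.23 and -0.47), 0.685 for Hey1 (0.57 and -0.12) and 0.3527 for Notch1 (0.11 and -0.24). It was -0.3772 for Hes1 (-0.15 in clone 31 and 0.23 in clone 30) and -0.1632 for Notch2 (-0.08 and 0.09). From untreated to 48 h it was 0.9379 for Dll3 (0.91 in clone 31 and -0.03 in clone 30) and -0.4061 for Jag1 (-0.27 and 0.14). From 24 h to 48 h it was 0.5865 for Hes1 (0.54 in clone 31 and -0.05 in clone 30).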

How the results depend on the processing

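Calls depended on the clone block and on leaving out 1 library more than on scaling. With the replicate block the number of the 10 genes called at 48 h against untreated was 5 in edgeR, with DESeq2 size factors, upper-quartile scaling, the 1 CPM filter, limma voom or thinning, 6 with total counts or in DESeq2, 4 with no filter and 0 on the 4 libraries compared. At 48 h against 24 h it was 7 in edgeR, with DESeq2 size factors, total counts, DESeq2, limma voom or the 4 libraries, 8 with upper-quartile scaling, the 1 CPM filter or thinning, and 5 with no filter. At 24 h against untreated it was 1 on the 4 libraries and 0 under the other settings with all libraries. Without the block the counts of 0 at 48 h against untreated and against 24 h became 1 with no filter and 4 in DESeq2. Between the clones the count of 1 became 2 with DESeq2 size factors, 3 with upper-quartile scaling, total counts or no filter, 5 in DESeq2 and 0 with clone alone. Leaving out 1 library gave 0 to 9 genes at 48 h against untreated, 0 to 1 at 24 h against untreated, 0 to 10 at 48 h against 24 h and 0 to 6 between the clones. The cause was not tested. Of all genes, edgeR and DESeq2 with the block called 17.4% and 21.0% at 48 h against untreated, and 26.1% and 26.7% at 48 h against 24 h. DESeq2 without the block called 10.4% and 15.8% in these comparisons. Between the clones edgeR called 16.2%. Where no share of all genes is given, here or above, the count alone is no result about the 10 genes.

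Small differences changed sign. At 24 h against untreated Hes5 was -0.18 on treatment group alone. With the replicate block it was 0.057 in edgeR, 0.057 with DESeq2 size factors, 0.010 with upper-quartile scaling, 0.055 with total counts, 0.048 with the 1 CPM filter, 0.051 with no filter, 0.182 in DESeq2 and 0.182 on the 4 libraries. In limma voom it was 0.743, and 0.422 with the block. Notch2, at 0.00083 in the same comparison, was -0.038 with upper-quartile scaling, -0.010 with total counts, -0.0072 with the 1 CPM filter, -0.0034 with no filter and -0.0093 on the 4 libraries. With the block those became -0.036, -0.0088, -0.0042, -0.00019 and -0.0077, and -0.023 with thinning. Hes1, at 0.017, was -0.018 with upper-quartile scaling. Between the clones Hes5 and Hey1 were 0.064 and 0.076 with clone alone, against -0.90 and -0.10.

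Leaving out 1 library also turned signs. At 24 h against untreated the range was -0.30 to 0.19 for Notch1, -0.082 to 0.096 for Notch2, -0.75 to 0.59 for Dll1, -0.23 to 0.33 for Hes1, -1.07 to 2.29 for Hes5, -0.22 to 0.68 for Hey1 and -0.084 to 0.66 for Dtx4. At 48 h against untreated it was -0.15 to 1.04 for Dll3, -0.13 to 0.65 for Hes1 and -0.31 to 0.16 for Jag1. It was -0.14 to 0.64 for Hes1 at 48 h against 24 h and -0.37 to 0.19 for Hey1 between the clones. At 48 h against untreated Hes5, Nrarp, Hey1, Dtx4, Dll1, Notch1 and Notch2 kept their direction in every setting run. Depth limits Hes5 most, at 31 counts in its lowest library.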

Other observations

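Among 11020 genes outside the lists with at least 5 CPM on average, those whose log2 CPM followed Hes5 most closely over the 6 libraries were Csdc2 (Pearson r = 0.992), Dnaic2 (r = 0.991) and P2rx6 (r = 0.991). P2rx6, a purinergic receptor subunit, had 2.95 and 7.02 CPM in untreated clones 31 and 30, 4.36 and 6.12 CPM at 24 h and 12.5 and 13.8 CPM at 48 h. Csdc2 had 10.0 and 14.7 CPM untreated, 12.6 and 13.4 CPM at 24 h and 23.0 and 21.4 CPM at 48 h. Both shared with Hes5 the gap between the untreated clones and the nearness of the clones at 48 h, over a smaller span.

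The genes that followed Nrarp most closely were Cox19 (r = 0.994), Zrsr1 (r = 0.991) and Tap2 (r = 0.990). Zrsr1 had 24.6 and 31.7 CPM in untreated clones 31 and 30, 31.6 and 40.0 CPM at 24 h and 47.8 and 48.0 CPM at 48 h, stepping up at each time as Nrarp did. These correlations were picked as the highest of 11020 over 6 libraries that share 2 clones and 3 times, and are given as a description.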
